A study of Mus musculus with 8 samples.

Results

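Genes of MHC class I antigen processing and of the immunoproteasome were followed in macrophages of the mouse mammary gland after fibroblast growth factor receptor 1 (FGFR1) was activated in the gland's epithelium. The 9 genes were chosen by name: Psmb8, Psmb9, Psmb10, Psme1, Psme2, Tap1, Tap2, Tapbp and B2m. Of these, 8 had a probe set annotated to them alone, among 18193 genes with such a probe set on the array. The only Psme2 probe set is annotated to Psme2b as well, so Psme2 itself was not measured on its own. For each gene the probe set with the highest mean signal over the 8 arrays was used.

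MHC class I molecules show peptides from inside a cell to CD8+ T cells. Proteasomes cut proteins into peptides, a transporter carries the peptides into the endoplasmic reticulum, and there they are loaded onto a heavy chain paired with beta-2 microglobulin. Interferons, above all interferon gamma, replace the catalytic subunits of the proteasome with those of the immunoproteasome and raise the whole pathway, which resident macrophages also express at rest.

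MMTV-iFGFR1 transgenic mice carry an inducible FGFR1 whose promoter, taken from mouse mammary tumour virus (MMTV), drives expression in mammary epithelium. The 4 groups were MMTV-iFGFR1 transgenic and control mice after 48 hours of dimerizer, and MMTV-iFGFR1 transgenic and control mice after 4 weeks of dimerizer. The controls were littermates without the transgene that received the same dimerizer, the drug that joins the receptor molecules. All mice were FVB females, 6 weeks old when treatment began, and no group without dimerizer was analysed here. Each group had 2 arrays, and each array held RNA of Cd11b-stained cells pooled from 3 mice. P-values therefore measure the spread between pools, not between mice. One label conflicts: transgenic 4 weeks pool 2 is described in 1 field as coming from non-transgenic animals. Its other labels give the transgenic genotype, under which it was analysed.

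Values are MAS5 signals, a linear brightness per probe set without detection calls, and the trimmed mean of each array was 500. The number of arrays limits the precision. Macrophage genes were bright on all arrays: Csf1r, the receptor of the main macrophage growth factor, gave 68311 to 93065 and Adgre1, an adhesion receptor of mouse macrophages, 9842 to 14627. Itgam, the gene of Cd11b, gave 46.8 in control 4 weeks pool 2, while the other 7 arrays gave 184 to 545. Control 4 weeks pool 2 also stood apart in RNA quality, with a ratio of 3' to 5' actin signal of 37.0 against 6.84 to 13.9 on the other 7 arrays. On the log2 scale this ratio averaged 3.06 ± 0.32 over the 4 transgenic arrays and 3.88 ± 0.95 over the 4 control arrays (SD), with a two-sided p of 0.143 by an exact permutation test that can go no lower than 0.0286.

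Promoter sequences are shown for the genes whose control and transgenic pools separated after 4 weeks (Psmb9, Tap1 and Tapbp) and for the members that hold an interferon-type motif. In the mouse genome Psmb9, Tap1, Psmb8 and Tap2 are consecutive protein-coding genes between MHC class II genes, and Psmb9 and Tap1 start back to back. The 225 bases between their starts, chr17:34187331-34187555 of GRCm38.p6 on the plus strand, serve as upstream region of both genes. The other stretches are the 250 bases before each gene's start, all on the plus strand: chr17:33919228-33919477 for Tapbp, chr2:122147437-122147686 for B2m and chr17:34197945-34198194 for Psmb8. All are RefSeq sequences, 5′ to 3′. Capitals mark matches on either strand to a pair of GAAA copies with any 2 bases between them (the core of the interferon-stimulated response element, ISRE), TTCNNNGAA (the gamma-activated site of interferon gamma signalling, GAS) or GGGCGG (the GC box bound by Sp1), which do not overlap here.
Psmb9 to Tap1: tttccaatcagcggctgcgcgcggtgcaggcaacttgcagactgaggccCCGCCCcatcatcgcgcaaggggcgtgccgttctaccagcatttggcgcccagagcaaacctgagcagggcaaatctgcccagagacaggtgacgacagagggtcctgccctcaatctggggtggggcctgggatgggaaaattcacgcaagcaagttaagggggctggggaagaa
Tapbp: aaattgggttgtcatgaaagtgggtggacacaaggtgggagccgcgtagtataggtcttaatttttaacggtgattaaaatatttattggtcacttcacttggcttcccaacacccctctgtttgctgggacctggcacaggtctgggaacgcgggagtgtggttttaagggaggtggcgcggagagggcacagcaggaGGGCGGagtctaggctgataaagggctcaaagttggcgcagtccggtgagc
B2m: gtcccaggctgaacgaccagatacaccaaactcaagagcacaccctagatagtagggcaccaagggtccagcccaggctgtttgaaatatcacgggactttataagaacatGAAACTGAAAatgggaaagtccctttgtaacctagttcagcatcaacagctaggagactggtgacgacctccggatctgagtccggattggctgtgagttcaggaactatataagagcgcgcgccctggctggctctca
Psmb8: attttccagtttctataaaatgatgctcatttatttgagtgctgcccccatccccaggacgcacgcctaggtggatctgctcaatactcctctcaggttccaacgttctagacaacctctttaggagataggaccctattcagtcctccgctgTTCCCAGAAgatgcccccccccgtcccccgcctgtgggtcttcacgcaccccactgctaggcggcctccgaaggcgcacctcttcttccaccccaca
Upstream windows were found for 8 of the 9 genes. The ISRE core was present in 1 of these 8 (B2m), against 2.98% of all 32851 windows, the GAS in 1 of 8 (Psmb8), against 7.02%, and the GC box in 5 of 8, against 32.7%, where the match counted for Psmb9 and for Tap1 is the same one in their shared stretch. The stretch shared by Psmb9 and Tap1 held 1 GC box and neither interferon-type motif in these letters. The GC box was added after the stretch had been seen. A match is a description of the letters and says nothing of binding.

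After 48 hours no member separated the genotypes beyond the spread between pools in limma. In limma, 0 of 13054 genes (0%) had an adjusted p under 0.05, and 531 (4.07%) had an unadjusted p under 0.05, of which 0 were members. Among the immunoproteasome genes, Psmb8, a catalytic subunit that replaces Psmb5, had signals of 2784 and 2654 in transgenic pools, against 2462 and 2314 in control pools. Both transgenic pools lay above both control pools, the only member for which this held, and 18.9% of all genes tested were higher without overlap. The log2 difference of Psmb8 was 0.19 (SE 0.33), with limma's adjusted p = 0.983.

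Psmb9, which replaces the catalytic subunit Psmb6, had 1531 and 1019 in transgenic pools, against 869 and 1084 in control pools at 48 hours. Psmb10, which replaces Psmb7, had 3256 and 1863 in transgenic pools, against 2232 and 1732 in control pools. Psme1, a subunit of the PA28 ring that caps the proteasome and opens its gate, had 3413 and 3018 in transgenic pools, against 3154 and 3405 in control pools. In all 3 the groups overlapped, and the transgenic Psmb10 pools differed from each other by more than the group means did.

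The peptide transporter is a pair of Tap1 and Tap2 in the membrane of the endoplasmic reticulum. At 48 hours Tap1 had 724 and 704 in transgenic pools, against 518 and 750 in control pools. Tap2 had 383 and 302 in transgenic pools, against 316 and 306 in control pools. Tapasin, encoded by Tapbp, bridges the transporter and the class I molecule and edits its peptides. Tapbp had 3538 and 3736 in transgenic pools, against 3332 and 5408 in control pools, and B2m, the light chain of every class I molecule, had 46689 and 39410 in transgenic pools, against 45892 and 46033 in control pools. The groups overlapped for these 4 genes too. Luminal epithelial markers also differed at this time, with summed signals of 12310 to 13071 in transgenic and 4130 to 4395 in control pools. Of 10 tested, 8 were higher without overlap, as were 18.9% of all genes tested. Neutrophil markers summed to 9550 to 10402 in transgenic and 15160 to 17194 in control pools. Of 9 neutrophil markers tested, 7 were negative and 2 positive, with a median of −0.32 and the highest at 1.19. The part of luminal or neutrophil cells in these values was not tested. Over the 8 members the log2 differences ran from −0.22 for Tapbp to 0.35 for Psmb9, with a median of 0.15, against a median of 0.04 over all genes tested. With transgenic 48 hours pool 1 left out that median was −0.059, with control 48 hours pool 1 left out it was 0.036, and the actin covariate gave −0.099. Psmb9 was at 0.068 without transgenic 48 hours pool 1 and 0.64 without transgenic 48 hours pool 2.

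**Figure D1:**
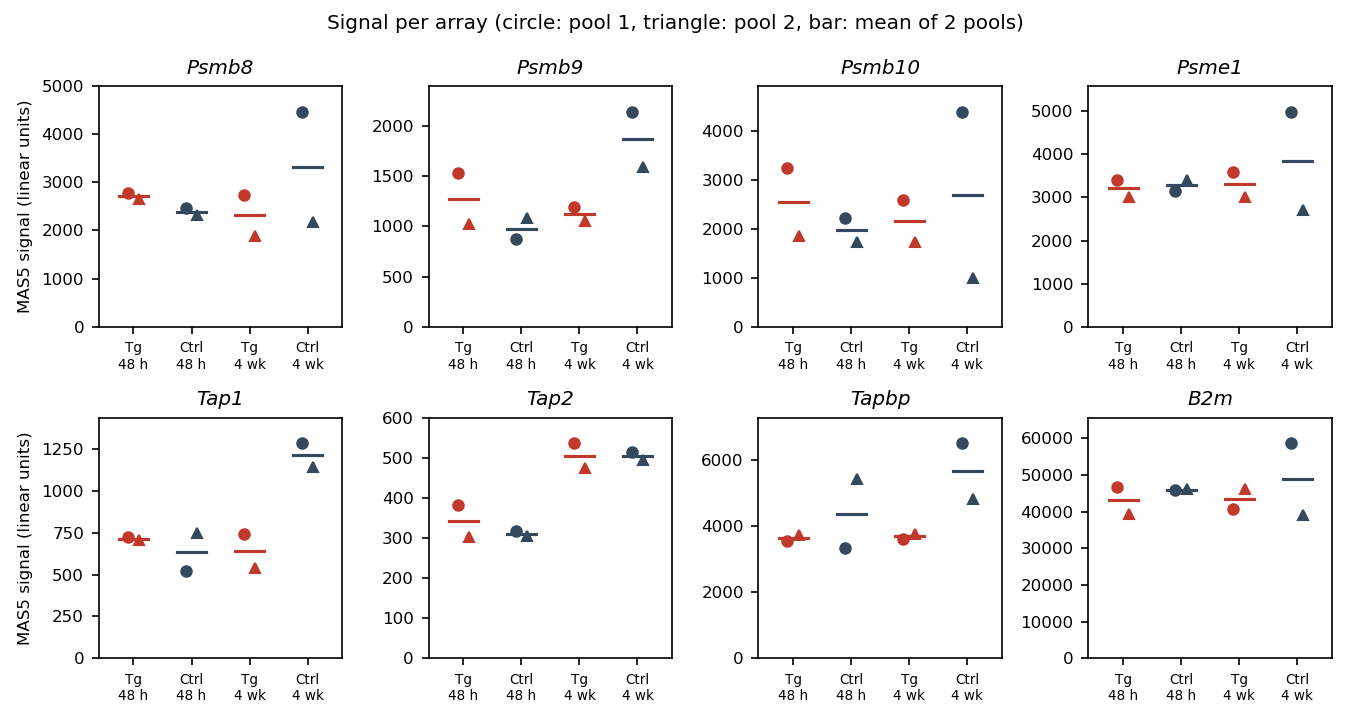
MAS5 signal (linear units, axis from 0) of the 8 measured genes on each array, with the MMTV-iFGFR1 transgenic group (Tg, red) left of the control group (Ctrl, dark blue) at 48 hours and at 4 weeks. Circles are pool 1, triangles pool 2 and bars the mean of 2 pools, and in the 4 weeks groups both transgenic pools lie below both control pools for Psmb9, Tap1 and Tapbp only.

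After 4 weeks Tap1, Psmb9 and Tapbp had lower signals in both transgenic pools than in both control pools. Tap1 had 745 and 536 in transgenic pools, against 1284 and 1140 in control pools, a log2 difference of −0.90 (SE 0.29). Psmb9 had 1195 and 1049 in transgenic pools, against 2139 and 1591 in control pools, a log2 difference of −0.70 (SE 0.29). Tapbp had 3612 and 3748 in transgenic pools, against 6495 and 4824 in control pools, a log2 difference of −0.60 (SE 0.26). These 3 of 8 members were lower without overlap, as were 17.2% of all genes tested, and the same 3 were lower at an unadjusted p under 0.05, as were 3.1% of all genes tested.

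None of them passed the test over all genes. In limma, 0 of 13054 genes (0%) had an adjusted p under 0.05 at 4 weeks, and 660 (5.06%) had an unadjusted p under 0.05. The adjusted p of Tap1, Psmb9 and Tapbp was 0.965 each. In bulk RNA fewer cells of a type and less RNA per cell cannot be told apart. Both transgenic pools lay below both control pools for Tap1, Psmb9 and Tapbp, so leaving out a single pool could not turn the sign. With each of the 4 weeks pools left out in turn, the log2 difference ran from −1.13 to −0.68 for Tap1, −0.91 to −0.50 for Psmb9 and −0.81 to −0.39 for Tapbp. Without control 4 weeks pool 2 it was −0.99 for Tap1, −0.91 for Psmb9 and −0.81 for Tapbp. Without transgenic 4 weeks pool 2, the pool with the conflicting label, it was −0.68 for Tap1, −0.61 for Psmb9 and −0.63 for Tapbp. Without control 4 weeks pool 1, Tapbp was at −0.39 and Psmb9 at −0.50.

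For the other members at 4 weeks, control pool 1 lay high and control pool 2 low. Psmb8 had 2739 and 1891 in transgenic pools, against 4465 and 2170 in control pools. Psmb10 had 2599 and 1726 in transgenic pools, against 4395 and 997 in control pools. Psme1 had 3591 and 3011 in transgenic pools, against 4982 and 2695 in control pools. In each the control pools enclosed or overlapped the transgenic ones, and for Psmb10 control pool 1 was 4.3-fold above control pool 2. B2m behaved likewise, with 40812 and 46061 in transgenic pools, against 58581 and 39115 in control pools. Tap2 was level, with 536 and 475 in transgenic pools, against 515 and 495 in control pools, and a log2 difference of −0.00 (SE 0.29).

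The members thus did not share one pattern at 4 weeks. The median log2 difference over the 8 members was −0.30, against −0.02 over all genes tested, and 7 of 8 were negative. It was 0.05 without control 4 weeks pool 1, −0.86 without control 4 weeks pool 2, −0.43 without transgenic 4 weeks pool 1 and −0.21 without transgenic 4 weeks pool 2. The actin ratio of 37.0 belongs to control 4 weeks pool 2, the array on which B2m, Psmb10 and Psme1 were lowest of all 8. When the actin ratio entered the fit as a covariate, the median was −0.83 and Psmb10 was at −1.08 (SE 0.31), with limma's adjusted p = 0.549, while Tap1 was at −0.95, Psmb9 at −0.96 and Tapbp at −0.74. Because control 4 weeks pool 2 has by far the highest ratio, this fit is no separate check from leaving that pool out. Without that pool Psmb10 was at −1.04. No member had an adjusted p under 0.05 in limma under any setting tried.

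**Figure D2:**
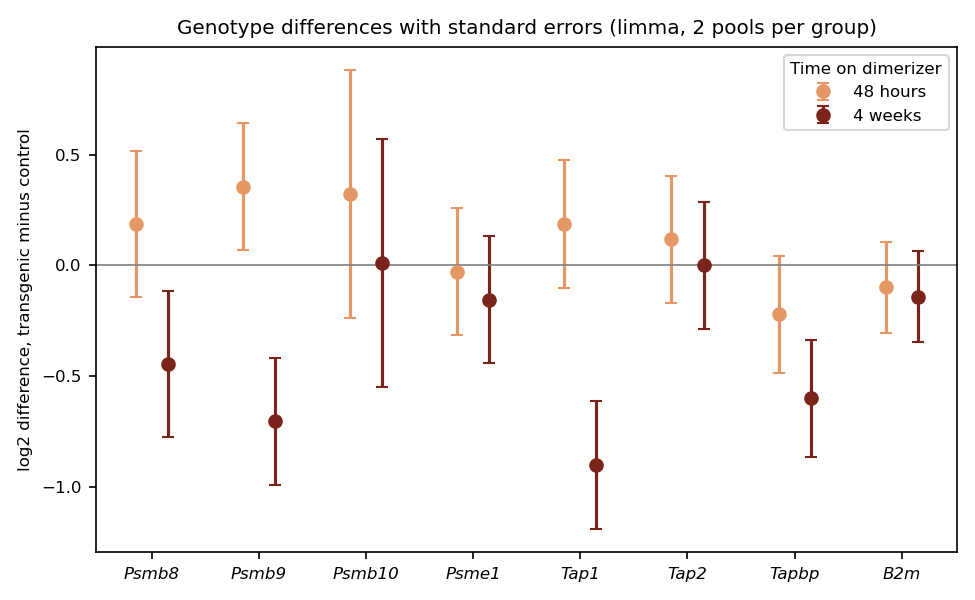
Log2 difference of signal, transgenic minus control, for each of the 8 genes after 48 hours (light) and after 4 weeks (dark), with standard errors from limma over 2 pools per group. At 4 weeks Tap1, Psmb9 and Tapbp are at −0.90, −0.70 and −0.60, and Psmb10 has the widest error.

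Other probe sets of the same genes were available for 4 members. The second Psmb8 probe set was on the same side as the one used, with log2 differences of 0.12 (SE 0.33) at 48 hours and −0.26 (SE 0.33) at 4 weeks. The second B2m probe set gave 0.39 (SE 0.42) at 4 weeks, with signals of 20212 and 13309 in transgenic pools, against 21550 and 7305 in control pools. The second Tapbp probe set, at 61.1 to 239 over the 8 arrays, gave 0.29 (SE 0.58) at 4 weeks and so did not repeat the lower signal of the brighter one. The 3 further Tap1 probe sets lay between 2.8 and 75 units on all arrays, near the bottom of the scale, where a difference cannot be read. Psmb9, Psmb10, Tap2 and Psme1 had a single probe set. The probe set shared by Psme2 and Psme2b had 4082 and 3925 in transgenic pools, against 5836 and 4707 in control pools at 4 weeks, a log2 difference of −0.39 (SE 0.28). At 48 hours it had 6228 and 3461 in transgenic pools, against 5398 and 4264 in control pools.

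The difference between the genotype effects at the 2 times was fitted as an interaction. Tap1 had −1.09 (SE 0.41) and Psmb9 −1.06 (SE 0.41) on the log2 scale, the 2 lowest among the members, followed by Psmb8 at −0.63 (SE 0.46). Psmb8 was at −0.12 without control 4 weeks pool 1 and at −1.15 without control 4 weeks pool 2. Tapbp, at −0.38 (SE 0.37), was at −0.032 without control 48 hours pool 1 and at −0.73 without control 48 hours pool 2. All 8 members were negative, with a median of −0.34 against −0.06 over all genes tested. It was −0.87 without control 4 weeks pool 2, −0.10 without control 4 weeks pool 1, −0.25 without transgenic 4 weeks pool 2 and −0.68 with the actin covariate. The adjusted p in limma was 0.988 for Tap1 and Psmb9, and 0 of 13054 genes (0%) passed, with 619 (4.74%) at an unadjusted p under 0.05. Tap1 and Psmb9 were the 2 members among those that were lower, as were 2.57% of all genes tested.

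Within the control mice, 4 weeks of dimerizer were compared with 48 hours, a comparison that shares the 4 weeks control pools with the one above and in which age differs too. All 8 members had a positive difference, with a median of 0.39 against 0.05 over all genes tested. T and NK markers differed in the same comparison, with summed signals of 1155 to 1193 at 4 weeks and 3249 to 5994 at 48 hours. Of 7 tested, 5 were negative, with a median of −0.82, and their part in these values was not tested. Tap1 was at 0.92 (SE 0.29) on the log2 scale, with 1284 and 1140 at 4 weeks against 518 and 750 at 48 hours. Psmb9 was at 0.91 (SE 0.29), with 2139 and 1591 at 4 weeks against 869 and 1084 at 48 hours. Tap2 was at 0.65 (SE 0.29), with 515 and 495 at 4 weeks against 316 and 306 at 48 hours. These 3 members were higher without overlap, as were 18% of all genes tested, and had limma's adjusted p of 0.632, 0.633 and 0.809. The adjusted p was under 0.05 for 1 of 13054 genes (0.00766%), the coagulation factor gene F5, which was named after its values were seen, and 804 genes (6.16%) had an unadjusted p under 0.05. The same 3 members were higher at that level, as were 3.37% of all genes tested. The members' median was 0.02 without control 4 weeks pool 1 and 0.79 without control 4 weeks pool 2.

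Within transgenic mice the median difference of the members between 4 weeks and 48 hours was −0.07, with 4 of 8 positive, against −0.01 over all genes tested. Tap2 was the single member without overlap, with 536 and 475 at 4 weeks against 383 and 302 at 48 hours, a log2 difference of 0.53 (SE 0.29), and 14.1% of all genes tested were higher without overlap. Tap1 was at −0.17 (SE 0.29) and Psmb9 at −0.15 (SE 0.29). Tap2 thus had its higher signals at 4 weeks in both genotypes, whereas Tap1 and Psmb9 had theirs in the control pools of 4 weeks. In limma 0 of 13054 genes (0%) passed, with 287 (2.2%) at an unadjusted p under 0.05.

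Over both times together, the genotype difference of the members had a median of −0.13 on the log2 scale. Tapbp was lowest at −0.41 (SE 0.19), and Tap1 was at −0.36 (SE 0.20). In limma 0 of 13054 genes (0%) passed, with 583 (4.47%) at an unadjusted p under 0.05, of which 0 were members. The members' median was −0.34 without control 4 weeks pool 2 and 0.05 without control 4 weeks pool 1.

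The immunoproteasome subunits were set beside the constitutive subunits they replace. At 4 weeks Psmb5 had 4962 and 3253 in transgenic pools, against 3785 and 4195 in control pools, a log2 difference of 0.01 (SE 0.24), where Psmb8 had −0.45 (SE 0.33). Psmb6 had 5129 and 5236 in transgenic pools, against 5682 and 5424 in control pools, a log2 difference of −0.10 (SE 0.20), where Psmb9 had −0.70 (SE 0.29). Psmb6 was thus lower without overlap too, by less than its standard error. The log2 ratio of Psmb9 to Psmb6 was lower in both transgenic pools than in both control pools, by −0.61 on average. Psmb9 by itself was already lower without overlap, as were 17.2% of all genes tested. Psmb7 had 842 and 1446 in transgenic pools, against 873 and 425 in control pools, a log2 difference of 0.82 (SE 0.54), and its ratio with Psmb10 overlapped between the groups. At 48 hours the ratio of Psmb8 to Psmb5 was higher in both transgenic pools, by 0.21 on the log2 scale, and the other 2 ratios overlapped. Psmb8 by itself was higher without overlap then, as were 18.9% of all genes tested. The ratios were not tested and have no standard error or share over all genes.

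**Figure D3:**
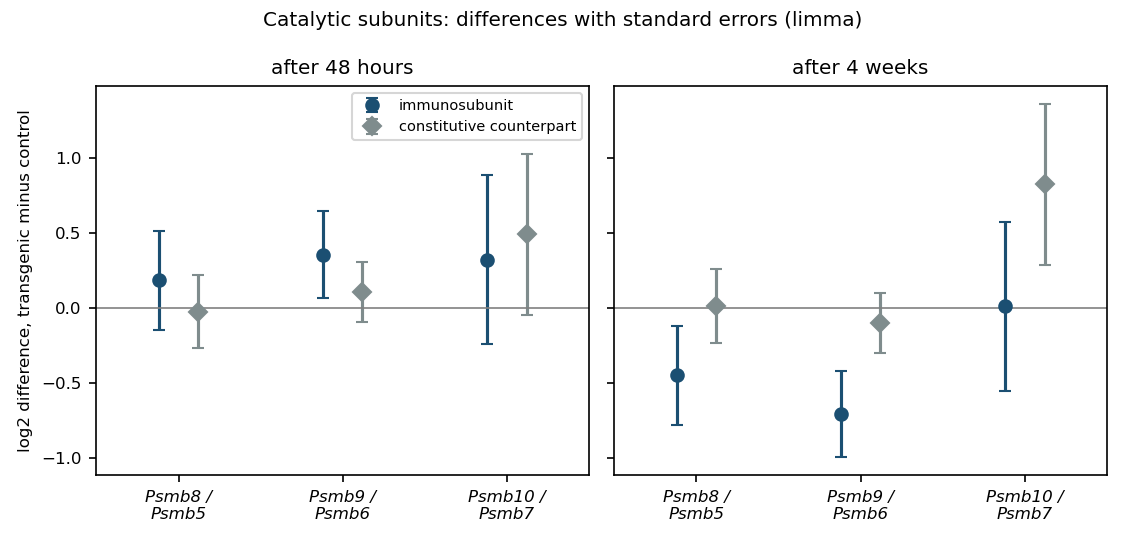
Log2 difference of signal, transgenic minus control, of the immunoproteasome subunits (circles) and the constitutive subunits they replace (diamonds) after 48 hours and after 4 weeks, with standard errors from limma. At 4 weeks Psmb9 is at −0.70 and Psmb6 at −0.10, and the Psmb10 and Psmb7 errors are wide.

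All listed genes of the rest of the proteasome had a probe set of their own. Of 14 constitutive core subunits, 6 were positive and 8 negative at 4 weeks, with a median of −0.07, and 4 were lower without overlap, against 17.2% of all genes tested. At 48 hours 13 of 14 were positive with a median of 0.11, and 3 were higher without overlap, against 18.9% of all genes tested. Of 17 subunits of the regulatory particle, which unfolds proteins for the core, 12 were positive at 48 hours with a median of 0.26 and 9 higher without overlap, and 7 were positive at 4 weeks with a median of −0.06. Psmc5, an ATPase of that particle, had 823 and 665 in transgenic pools, against 413 and 488 in control pools at 48 hours, a log2 difference of 0.68 (SE 0.27). Among 7 other activators and assembly factors, 6 were positive at 48 hours with a median of 0.40 and 5 higher without overlap, as with Psmg2, an assembly chaperone, at 0.64 (SE 0.32). At 4 weeks 3 of the 7 were positive, with a median of −0.04. Their median level relative to the mean of all arrays was 0.20 and 0.04 on the transgenic 48 hours pools, against −0.52 and −0.12 on the control 48 hours pools. In these 3 lists 0 genes passed in limma at either time.

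Class I heavy chains are close copies of each other, so their probe sets may share signal, and 8 of 16 listed chains had a probe set of their own. Of the 6 tested, 6 were negative at 48 hours, with a median of −0.30. At 4 weeks 5 of the 6 were negative, with a median of −0.18. Of the 6, 4 were lower without overlap, where 17.2% of all genes tested were, and 1 was higher without overlap. H2-K1 had 26837 and 24911 in transgenic pools, against 33337 and 24309 in control pools. H2-D1 had 23916 and 24328 in transgenic pools, against 28070 and 26147 in control pools, a log2 difference of −0.17 (SE 0.20). H2-M3, a non-classical chain that presents formylated peptides, had 3289 and 2866 in transgenic pools, against 5125 and 3951 in control pools, a log2 difference of −0.55 (SE 0.24). H2-Q10, a secreted chain made mainly by the liver, was the 1 positive chain, and dim, with 69.5 and 48.4 in transgenic pools, against 22.1 and 16.5 in control pools, a log2 difference of 0.83 (SE 0.69). H2-T23 had no probe set of its own. The 6 chaperones and trimming enzymes of class I loading had a median of 0.16 at 4 weeks, with 4 positive. Tapbpl, a second peptide editor related to tapasin, had 235 and 236 in transgenic pools, against 313 and 414 in control pools, a log2 difference of −0.55 (SE 0.34). In both lists 0 genes passed in limma.

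Of 16 regulators tested, 12 were negative at 4 weeks, with a median of −0.21, and 0 passed in limma. Nlrc5 and Irf9 were the 2 that were lower without overlap, where 17.2% of all genes tested were, and 1 was higher without overlap. Nlrc5, the transactivator of class I genes, had 533 and 589 in transgenic pools, against 955 and 948 in control pools, a log2 difference of −0.73 (SE 0.25). Irf9, a DNA-binding factor of type I interferon signalling, had 1052 and 575 in transgenic pools, against 1392 and 1264 in control pools, a log2 difference of −0.74 (SE 0.32). Irf1, a factor that interferon gamma induces, overlapped, with 10145 and 6312 in transgenic pools, against 9730 and 9316 in control pools. At 48 hours Ifngr2, a chain of the interferon gamma receptor, had 324 and 277 in transgenic pools, against 840 and 615 in control pools, a log2 difference of −1.18 (SE 0.43). The Ifng probe set itself gave 4.3 to 99.5 over the 8 arrays and did not pass the filter on dim probe sets.

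Other interferon genes gave lower signals in the transgenic pools at 4 weeks, too. The 16 type I response genes tested were all negative, with a median of −1.31 and 12 of 16 lower without overlap, against −0.30 and 3 of 8 for the members. The 12 interferon-inducible GTPase and chemokine genes tested had a median of −0.76, 11 negative and 5 lower without overlap. Of all genes tested, 17.2% were lower without overlap at 4 weeks. Gbp6, a guanylate-binding protein, had 601 and 400 in transgenic pools, against 3754 and 1396 in control pools. MHC class II genes lay on the other side, with 8 of 9 positive and a median of 0.60, and Cd74, the invariant chain, had 30525 and 34834 in transgenic pools, against 21543 and 15694 in control pools. The class II median relative to the mean of all arrays overlapped, at 0.048 and 0.58 in transgenic pools, against −0.42 and 0.088 in control pools. Class II summed signals did not overlap, at 103912 to 150857 in transgenic and 71723 to 88787 in control pools. At 48 hours 9 of 9 class II genes were negative, with a median of −0.31. The difference between the lists was not tested, and 0 genes of these lists passed in limma.

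On single arrays, 7 of 8 members had their highest signal on control 4 weeks pool 1, and the eighth, Tap2, had it on transgenic 4 weeks pool 1. The median of the members relative to the mean of all arrays was 0.67 on control 4 weeks pool 1, and the other 7 arrays lay between −0.21 and 0.04. The type I response genes stood at 1.43 on control 4 weeks pool 1 and at 0.22 on control 4 weeks pool 2, against −0.28 and −0.81 on the transgenic 4 weeks pools. On control 4 weeks pool 2 only Tap1 and Psmb9 of the 8 members lay above all 6 arrays of the other groups.

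**Figure D4:**
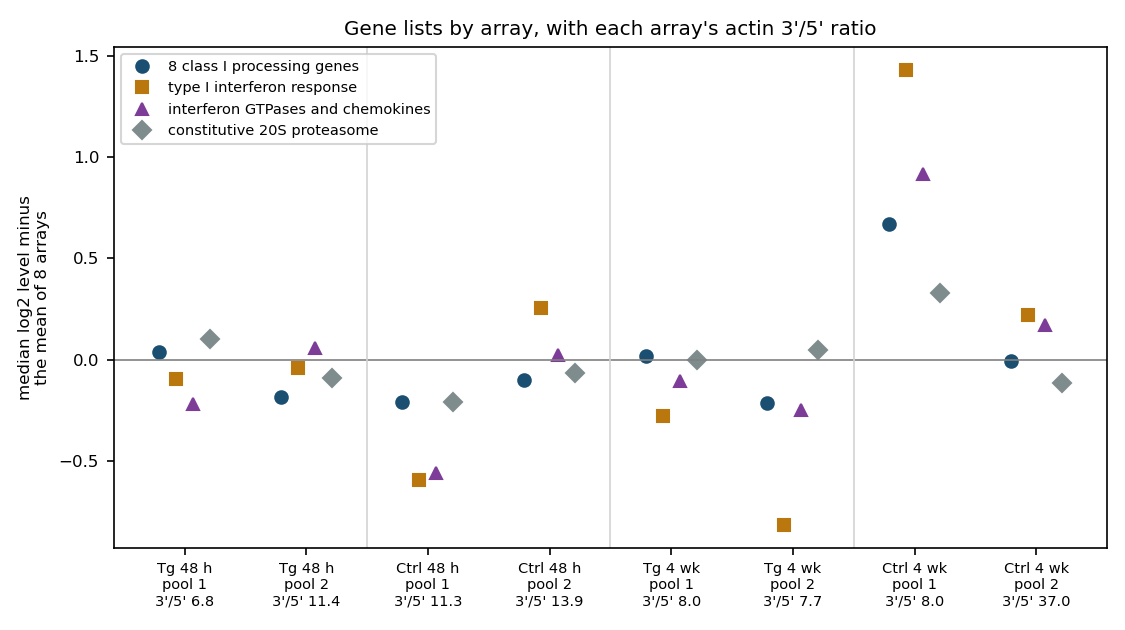
Median log2 level of 4 gene lists on each array relative to the mean of the 8 arrays, with the transgenic (Tg) left of the control (Ctrl) pools at each time and the actin 3' to 5' ratio under each array. Control 4 weeks pool 1 is highest for all 4 lists, at 0.67 for the 8 class I processing genes and 1.43 for the type I interferon response, and control 4 weeks pool 2 carries the ratio of 37.0.

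The summed signals of some markers of other cells also separated the 4 weeks groups, while those of luminal epithelial markers overlapped. All 9 neutrophil markers tested were negative at 4 weeks, with a median of −1.04. Their summed signal was 8309 to 8489 in transgenic and 11329 to 23528 in control pools. Relative to the mean of all arrays, their median level was 1.01 on control 4 weeks pool 2 but −0.29 on control 4 weeks pool 1. On the transgenic 4 weeks pools it was −0.43 and −0.40. The neutrophil difference was thus large only against control 4 weeks pool 2, whose actin ratio was the highest. S100a8, a granulocyte calcium-binding protein, had 2125 and 1431 in transgenic pools, against 3172 and 11267 in control pools. The 10 dendritic markers had 5 positive and 5 negative, and their summed signal was 6454 to 8680 in transgenic and 4183 to 5738 in control pools. T and NK markers summed to 1421 to 1917 in transgenic and 1155 to 1193 in control pools, with 4 positive and 3 negative of 7 tested. Luminal epithelial markers summed to 6792 to 11814 in transgenic and 9562 to 14456 in control pools. Within control mice the luminal markers were also higher at 4 weeks than at 48 hours, with 8 of 10 without overlap and sums of 9562 to 14456 against 4130 to 4395. Of all genes tested, 18% were higher without overlap in that comparison. No marker list had its defining genes at 0, since MAS5 gives every probe set a signal, and the part of these cells in the values above was not tested.

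The genes whose profile over the 8 arrays was most like the mean of the members were Irgm1, Trmt10b, Fpr2, Fbxw17 and Timd4, with a Pearson r of 0.962 to 0.974. Irgm1, an interferon-inducible GTPase, had 1045 and 852 in transgenic pools, against 2836 and 1083 in control pools at 4 weeks. Timd4, a receptor for apoptotic cells on resident macrophages, had 2192 and 1942 in transgenic pools, against 4339 and 2002 in control pools. Control 4 weeks pool 1 carries part of this likeness: without control 4 weeks pool 1 the r of the 5 genes was 0.736 to 0.846. Among the members the correlation of each with the mean of the others was 0.395 for Tap2 to 0.874 for Psme1 over 8 arrays, and −0.183 for Tapbp to 0.563 for Psmb9 without that array. The points share arrays and their scaling, and no p-value was attached.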

How the data were processed

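Per the labels' protocols, the sorted cells' RNA was extracted with the PicoPure system and went through 2-cycle amplification, which shortens transcripts and so favours probe sets near the 3' end. The authors deposited 1 intensity per probe set, computed with MAS5 according to the submitters' processing notes (version not given in the sources used here). Each array was already scaled, with equal means after trimming 2% at each end, and no further scaling was applied.

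Of 45101 probe sets, 34945 carried 1 gene symbol, 932 several and 9160 none, and 64 were array controls. Of those with 1 symbol, 34741 matched the RefSeq table by gene ID. Signals were turned into log2(signal + 30.8), the 25th percentile of all values, so log2 differences of dim genes are understated. Each gene was represented by its probe set of highest mean signal. Genes above the median of the array on 2 or more arrays entered the test, which left 13054 genes and all 8 measured members. The tests used linear models with an intensity trend in the prior (eBayes) from limma 3.58.1 under R 4.3.3, with 4 group means, one shared spread, 4 residual degrees of freedom and a median prior of 6.22. Two-sided p-values were adjusted within each comparison over all 13054 genes (Benjamini-Hochberg), and 0.05 was the threshold. A sample left out of a fit was dropped, not imputed, and a lone pool is then assumed to vary like the other groups. Figures used Python 3.11.15 and matplotlib 3.10.9.

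The members and the gene lists were chosen with earlier results of these data known, so no list was tested as a set and no p was adjusted over a list alone. Named genes are the 9 members, up to 4 genes with the smallest p of each other list at 48 hours or 4 weeks, fixed regulators, heavy chains, constitutive subunits and macrophage genes, and the 5 genes most like the members' mean profile. Not all genes that rule allows are named. B cell, fibroblast and endothelial markers were also measured, with median differences at 4 weeks of −0.34, 0.34 and −0.13 and 0 genes passing. The macrophage markers had a median of −0.05. Alternatives covered scaling, offset, filter, choice of probe set, trend, array weights, pool number as a block, 1 time alone, the actin ratio as a covariate and each pool left out.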

Additional observations from a re-analysis of the deposited data

How the results depend on the processing

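With 2 pools a group, brightness and array number limit every value, and no member passed in any comparison under any setting. Of the member values with 1 pool left out, 170 kept their direction and 22 turned. Of 268 member values under the settings that keep all pools or use another probe set, 257 kept their direction. Filter, trend, array weights, pool number as a block and 1 time alone cannot change a log2 difference in this balanced design. The directions kept under those settings were therefore fixed in advance and are no check. The direction turned with quantile normalization for B2m at 48 hours (0.017) and Tap2 at 4 weeks (0.012), and with an offset at the median for Psmb10 at 4 weeks (−0.0016), all values near 0. Adding the actin ratio to the fit, it turned for Psmb8 (−0.029) and Psmb10 (−0.17) at 48 hours and for Psmb10 (−1.08) at 4 weeks. The sign also differed on other probe sets for B2m (0.39) and Tapbp (0.29) at 4 weeks, and for Tap1 at 48 hours (−0.80 and −0.45) and at 4 weeks (0.12), where the Tap1 probe sets are too dim for a direction to be read. The cause was not tested.

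In the fit with the actin ratio the members' median was −0.099 at 48 hours, −0.83 at 4 weeks and −0.68 for the difference between the times. With single pools left out, the median ran from −0.059 to 0.21 at 48 hours, from −0.86 to 0.048 at 4 weeks, from −0.87 to −0.10 for the difference between the times and from 0.024 to 0.79 for 4 weeks minus 48 hours in control mice. At 48 hours the genotype difference then ran from −0.22 to 0.023 for B2m, −0.069 to 0.44 for Tap1, −0.040 to 0.28 for Tap2, −0.57 to 0.12 for Tapbp, −0.077 to 0.72 for Psmb10 and −0.12 to 0.058 for Psme1. At 4 weeks it ran from −0.43 to 0.15 for B2m, −0.083 to 0.082 for Tap2, −0.96 to 0.068 for Psmb8, −1.04 to 1.06 for Psmb10 and −0.59 to 0.28 for Psme1. The difference between the times ran from −0.33 to 0.25 for B2m, −0.28 to 0.040 for Tap2, −1.15 to −0.12 for Psmb8, −0.73 to −0.032 for Tapbp, −1.36 to 0.74 for Psmb10 and −0.56 to 0.31 for Psme1.

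Genes called outside the members are named here after their values were seen. The number called at 48 hours was 0, and 1 (Csn3) with the arrays of that time alone. At 4 weeks it was 0, 1 (Nrip2) with the arrays of that time alone and 2 (Serpinb2 and Dnajc17) with the replicate block. For 4 weeks minus 48 hours in control mice it was 1 (F5), 0 with a filter at the 75th percentile, without a trend or with array weights, 4 with the replicate block and 7 with the actin covariate. With single pools left out it ran from 0 to 1 for the genotype differences at 48 hours, at 4 weeks and between the times and for the time difference in transgenic mice, from 0 to 7 for the time difference in control mice, with 7 without control 4 weeks pool 2, and from 0 to 3 over both times, with 3 without control 4 weeks pool 1. Over all fits 15 genes were called at least once, of which 0 were members. The pool number was no established pairing: deviations of same-numbered pools from their group means correlated at −0.084 to 0.133. Each group had 1 pool of each number, so the block cannot change a log2 difference. The members' medians therefore stayed at 0.15 at 48 hours and −0.30 at 4 weeks. No member's call changed with the block. An alternative chosen after seeing the data added the probe set shared by Psme2 and Psme2b as a ninth member, which gave medians of 0.12 at 48 hours and −0.39 at 4 weeks.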
